A study of Homo sapiens with 6 samples.

Results

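Kinesin motor genes were described in ribosome footprint libraries of the human cell line RKO, which comes from a colorectal cancer. Members were all genes of the deposited table whose symbol has the form of a kinesin family name (KIF with a number and letter, or KIFC with a number). This gave 42 of 20289 genes. They were divided by known role into 15 mitotic kinesins, 17 transport kinesins and 10 ciliary, regulatory or little described kinesins. The 6 libraries form 2 groups of 3. In shControl the cells carried a control short hairpin RNA, and the labels call them WT. In shTRMT6 the hairpin was directed against TRMT6, which forms with TRMT61A the enzyme that places m1A on cytosolic tRNAs. Both groups are the same line with no other agent named, and the labels give neither the time after hairpin delivery nor whether clones were picked. Ribosome footprints are mRNA pieces shielded by translating ribosomes, so a footprint level combines mRNA amount and ribosomes per mRNA. In such bulk samples, fewer cells of a type and less RNA per cell cannot be told apart.

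Kinesins are ATP-driven motors that move along microtubules or shorten their ends. Transport kinesins carry vesicles, organelles and ciliary cargo, mostly toward microtubule plus ends and often through light chains or adaptors. Mitotic kinesins build the spindle, move chromosomes and complete cytokinesis, and in dividing cells their mRNAs are most abundant late in the cell cycle. Some family members act mainly at cilia or in signalling.

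TRMT6 was lower in each knockdown library than in each control library, at 57.6, 58.4 and 95.3 FPKM in shControl and 20.7, 21.9 and 24.1 FPKM in shTRMT6. FPKM is the deposited unit, fragments per kilobase of gene, scaled to library size. Its log2 fold change was -1.58 (SE 0.27, limma adjusted p = 0.00301). The steps between low FPKM values gave an estimated 2581000 to 4065000 reads per library. The epithelial keratins KRT8 and KRT18 and the intestinal factor CDX2 had footprints in all libraries, whereas CDH1, VIL1 and MUC2 were listed at 0 throughout. Of the fibroblast, leukocyte, endothelial and neuronal markers checked, CD68 (mean 661 FPKM in shControl and 641 in shTRMT6) and TUBB3 (27.1 and 38.2 FPKM) were the abundant ones. PTPRC, CD3E, VWF, CDH5, PDGFRB, SNAP25, MAP2 and RBFOX3 were at 0 in all 6 libraries. The summed levels of the 5 neuronal markers (21.9 to 38.5 FPKM in shControl, 38.6 to 46.6 in shTRMT6) and of the 6 colonic markers (10.3 to 17.0 and 18.5 to 21.0) were separate between groups, the neuronal ones narrowly. TUBB3 made up most of the neuronal sum, and CDX2 (mean 12.9 FPKM in shControl and 19.3 in shTRMT6) nearly all of the colonic sum. The part of these markers in the results below was not tested. Whether replicates were grown as separate cultures is not stated, so the p-values cover the spread of these libraries alone, which may be technical.

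The feature that unites the family is the P-loop of the motor domain, the loop that grips ATP. Read in frame along the longest coding transcript of each gene, the codons of the strict kinesin form of this loop stood in 33 of the 42 members. Over all 20126 genes with a coding transcript in GENCODE 29, 35 genes held it (0.174%). The 2 that are not members were CENPE and STARD9, kinesins whose symbols lie outside the naming rule. The 24 bases are shown for some of the members that the results below turn on, so that the shared and the free positions can be seen. Capitals mark the codons that the search required and lower case the pair of codons left free between them.
KIF5B: GGACAAACAtcctctGGGAAGACA
KIF1C: GGGCAGACCggggctGGGAAATCC
KIF3B: GGACAAACTgggacaGGAAAAACC
KIF3C: GGCCAGACGggcactGGCAAGACC
KIF7: GGTCAGACGggctcaGGGAAGACA
KIF27: GGACAAACTggatctGGGAAGACA
KIF11: GGCCAAACTggcactGGAAAAACT
KIFC1: GGCCAGACAggcagtGGCAAGACC
KIF4A: GGGCAGACTggctctGGAAAAACC
KIF4B: GGGCAGACTggctctGGAAAAACC
The stretch lies near the start of the coding sequence in most of these genes, at codon 85 of KIF5B, 97 of KIF1C, 94 of KIF7 and 105 of KIF11. In KIFC1, whose motor domain is at the carboxyl end, it starts at codon 410. On GRCh38 it is coding sequence at chr10:32040396-32040419 in exon 3 of KIF5B (minus strand), chr17:5001327-5001350 in exon 5 of KIF1C (plus strand) and chr15:89652628-89652651 in exon 2 of KIF7 (minus strand). Among the 31 members whose stretch was compared there were 30 different stretches, and the single repeated one is that of KIF4A and KIF4B. Those copies are 95.7% identical over their coding sequence and share 31.7% of their windows of 28 bases, a length near that of a footprint. The 9 members without the strict form were KIF18A, KIF18B, KIF19, KIF20A, KIF20B, KIF22, KIF23, KIF26A and KIF26B, which says only that these codons were not found there.

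Of the 42 members, 32 passed the filter of at least 1 FPKM in at least 3 libraries and were tested. The other 10 reached at most 1.45 FPKM in any library. KIF2B, KIF19 and KIF25 were listed at 0 in all 6. KIF1A, KIF5A, KIF5C, KIF17 and KIF21B, transport motors best known from neurons and photoreceptors, were among the untested, as were KIF4B and KIF6. The nervous system isoforms KIF5A and KIF5C of conventional kinesin were at 0 in every control library. KIF5B, the heavy chain of conventional kinesin found in most tissues, had the highest mean of all members in shControl, at 118 ± 13.9 FPKM (SD, n = 3). KIFC3, a minus-end directed motor of Golgi and cell junctions, followed with 81.4 ± 22.8 FPKM, and KIF2A, which shortens microtubule ends, with 72.1 ± 30.7 FPKM. The spreads of KIFC3 and KIF2A overlapped, whereas each KIF5B control value lay above all those of KIFC3. In shTRMT6 the order of the leading members changed to KIFC3 (144 ± 34.5 FPKM), KIF5B (134 ± 11.7 FPKM) and KIF22 (86.6 ± 20.9 FPKM, SD, n = 3 each). There the spreads of KIFC3 and KIF5B overlapped.

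Kinesin footprints were higher in shTRMT6 for a part of the family and passed the test as lower for no member. In limma on log2(FPKM + 1), adjusted over all 11566 tested genes, 13 of 32 tested members were higher and 0 lower, and 0 were lower at an unadjusted p under 0.05 either. Of all tested genes, 26.5% were higher and 9.04% lower. Most kinesins are long genes, with a median coding length of 3028 nt among those tested against 1392 nt for all tested genes. Among tested genes with a coding length of at least 2000 nt, 39.8% were higher and 1.15% lower, close to the 40.6% and 0% of the kinesins. Groups did not overlap and shTRMT6 was higher for 18 of the 32, beside 37.0% of all tested genes, and lower for 0, beside 14.3%. For this measure the share among genes of at least 2000 nt was not counted. The median log2 fold change was 0.77 for the tested kinesins, 0.39 for all tested genes and 0.79 for those of at least 2000 nt. As a family the kinesins thus had shares of calls and a median change near those of long genes, and members differed among themselves. A member that did not pass is not thereby shown to be equal between groups.

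**Figure D1:**
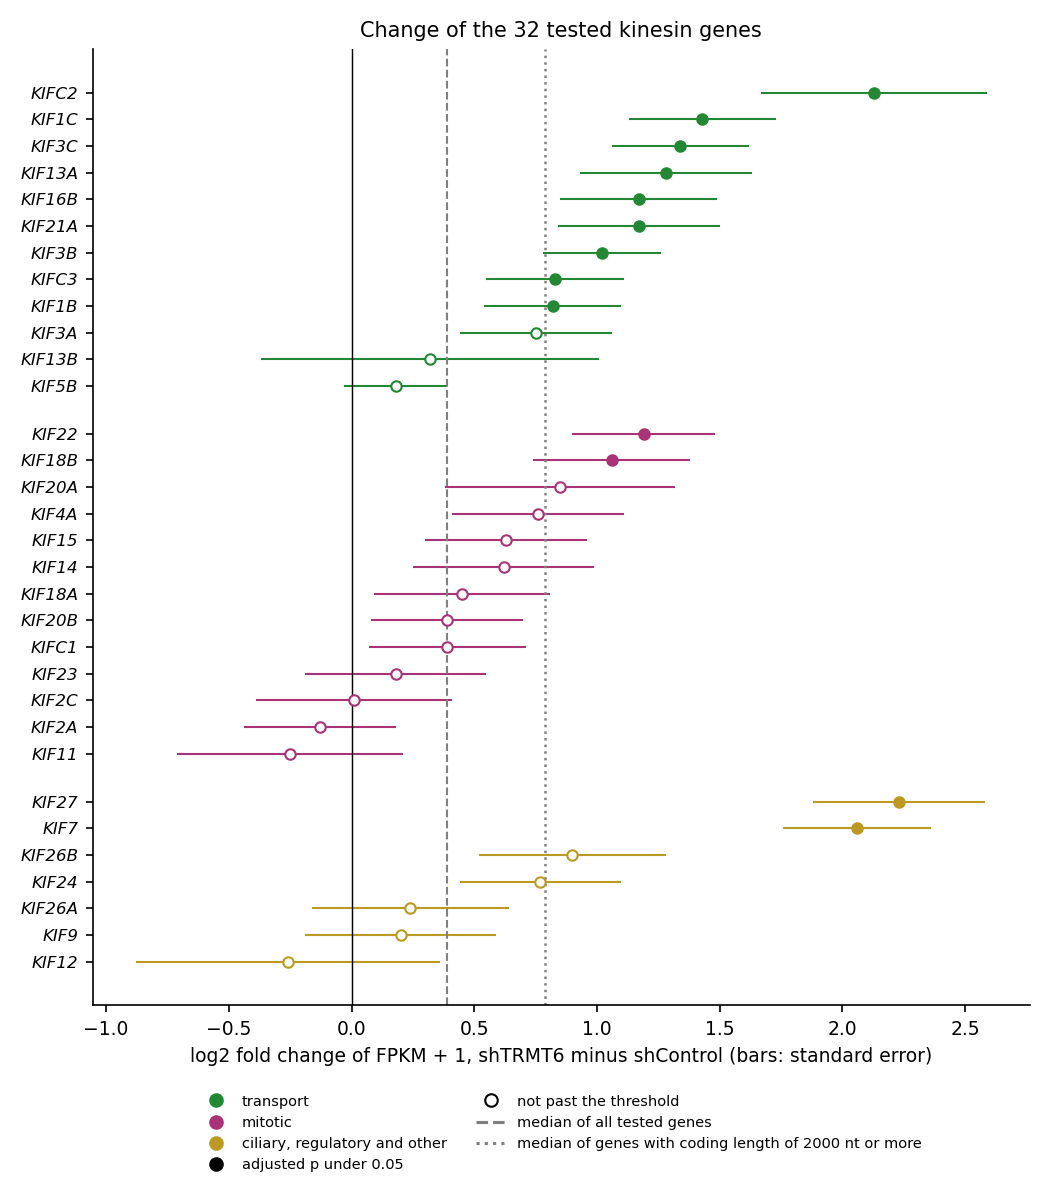
Log2 fold change of FPKM + 1 (horizontal axis, shTRMT6 minus shControl) with its standard error for each of the 32 tested kinesin genes, grouped by role. Filled points passed the threshold: 9 transport, 2 mitotic and 2 other kinesins. The dashed line marks the median of all tested genes (0.39) and the dotted line that of genes with a coding length of at least 2000 nt (0.79).

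Among the transport kinesins 9 of 12 tested members were higher in shTRMT6, and their median change was 1.10 (log2). Beside this, 26.5% of all tested genes were higher, as were 39.8% of those with a coding length of at least 2000 nt (median 0.79). KIFC2, a minus-end directed motor described in neurons, had 3.05, 9.73 and 1.86 FPKM in shControl and 18.8, 19.1 and 25.1 FPKM in shTRMT6. Its lowest knockdown value lay above its highest control value, which was in shControl replicate 2. The log2 fold change was 2.13 (SE 0.46, limma adjusted p = 0.00787). KIF1C, which carries vesicles and acts at the Golgi, had 21.8, 32.5 and 15.01 FPKM in shControl and 60.8, 56.3 and 66.5 FPKM in shTRMT6. Its groups were separate and its knockdown libraries close together (log2 fold change 1.43, SE 0.30, limma adjusted p = 0.00679).

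KIF3A pairs with KIF3B or KIF3C in motors of the kinesin-2 family, and the pair with KIF3B is the motor of intraflagellar transport. KIF3C, known mainly from neurons, had 4.76, 5.77 and 4.63 FPKM in shControl and 15.1, 13.8 and 13.9 FPKM in shTRMT6, a log2 fold change of 1.34 (SE 0.28, limma adjusted p = 0.00686). KIF3B had 17.7, 23.7 and 22.3 FPKM in shControl and 43.5, 42.7 and 45.5 FPKM in shTRMT6, a log2 fold change of 1.02 (SE 0.24, limma adjusted p = 0.0105). Both were separate between groups, and their knockdown libraries lay close together. KIF3A had 20.4, 10.4 and 19.8 FPKM in shControl and 32.1, 28.1 and 24.04 FPKM in shTRMT6. Its groups were also separate, but it did not pass (log2 fold change 0.75, limma adjusted p = 0.0902). KIFAP3, the third subunit of this motor, named after its values were seen, had 2.09, 2.29 and 12.5 FPKM in shControl and 6.53, 3.76 and 5.07 FPKM in shTRMT6, with overlapping groups.

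The endosome motors KIF13A and KIF16B were higher as well. KIF13A, which brings recycling endosomes to the cell edge, had 4.35, 5.41 and 4.42 FPKM in shControl and 11.1, 9.15 and 20.6 FPKM in shTRMT6 (log2 fold change 1.28, limma adjusted p = 0.0206). Its knockdown libraries spread widely, with replicate 3 highest. KIF16B, a motor of early endosomes, had 8.77, 18.1 and 10.2 FPKM against 27.6, 32.6 and 24.04 FPKM (1.17, limma adjusted p = 0.0191). Its relative KIF13B had 1.54, 2.62 and 16.5 FPKM in shControl and 4.0, 3.93 and 11.7 FPKM in shTRMT6. The value of shControl replicate 3 exceeded all others, and the groups overlapped (log2 fold change 0.32, SE 0.69, limma adjusted p = 0.741).

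KIF21A, which restrains microtubule growth at the cell cortex, had 4.15, 6.68 and 9.09 FPKM in shControl and 18.4, 13.2 and 15.5 FPKM in shTRMT6 (log2 fold change 1.17, limma adjusted p = 0.0233). KIF1B, a motor of mitochondria and synaptic vesicle precursors, had 11.6, 13.2 and 19.6 FPKM against 25.5, 25.99 and 27.1 FPKM (0.82, limma adjusted p = 0.0455). KIFC3 had 96.5, 55.1 and 92.6 FPKM against 116, 134 and 183 FPKM (0.83, limma adjusted p = 0.0453). These 3 also had separate groups, although KIF1B and KIFC3 passed narrowly. KIF1B and KIFC3 each passed in 1 of the 6 fits that left out a library, KIF16B and KIF21A in 3 and KIF13A in 4. KIF5B had 102, 129 and 124 FPKM in shControl and 132, 123 and 146 FPKM in shTRMT6. The transport motor with the highest control mean thus had overlapping groups and did not pass (log2 fold change 0.18, SE 0.21, limma adjusted p = 0.529). It rests on an estimated 970 to 1445 reads per library.

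**Figure D2:**
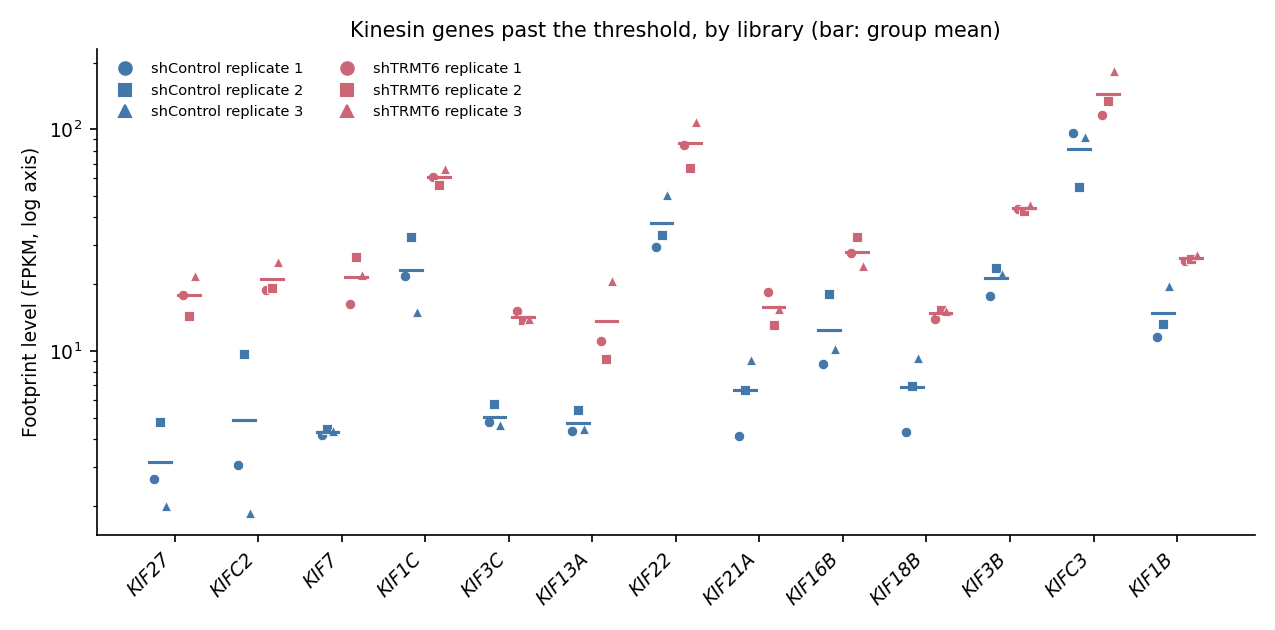
Footprint level in FPKM (vertical log axis) of the 13 kinesin genes past the threshold, for 3 shControl and 3 shTRMT6 libraries, with a bar at each group mean. In each gene all shTRMT6 values lie above all shControl values, and KIFC2 and KIF27 vary most among the control libraries.

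Of the 9 transport calls, KIF1C, KIF3B, KIF3C and KIFC2 remained in each of the 6 fits that left out 1 library. Scaling each library to its median, which took the median of all tested genes from 0.39 to -0.07, left KIF1C, KIF3C and KIFC2 (3 of 12 tested), beside 13.1% of all genes higher. Removing the trends with level and coding length left 0, with KIFC2 at a log2 fold change of 1.3 (limma adjusted p = 0.0533), and the median of the class at 0.29. Of all genes, 13.5% were higher in that fit and 13.9% after quantile normalization, where 2 transport kinesins passed. In the fits leaving out shControl replicate 1, 2 or 3 the share of all genes higher was 19.9%, 27.7% and 28.6%, and leaving out shTRMT6 replicate 1, 2 or 3 gave 16.6%, 17.9% and 15.7%. With the replicate number as a block it was 27.2%, with 8 transport kinesins higher.

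Among the mitotic kinesins 2 of 13 tested members were higher and 0 lower, and the median log2 fold change was 0.45. Of all tested genes 26.5% were higher, and of those of at least 2000 nt 39.8%. KIF22, a chromokinesin that pushes chromosome arms away from the poles, had 29.4, 33.4 and 50.4 FPKM in shControl and 84.8, 66.8 and 108 FPKM in shTRMT6. Its groups were separate (log2 fold change 1.19, SE 0.29, limma adjusted p = 0.0117). KIF18B, which shortens astral microtubules, had 4.31, 6.94 and 9.26 FPKM in shControl and 14.0, 15.3 and 15.2 FPKM in shTRMT6. It too had separate groups (log2 fold change 1.06, SE 0.32, limma adjusted p = 0.0294). KIF18B passed in 2 of the 6 fits that left out a library and KIF22 in 5. Its relative KIF18A, which damps chromosome movements at the metaphase plate, had 3.34, 6.79 and 7.92 FPKM against 6.57, 9.11 and 9.09 FPKM, overlapped and did not pass (0.45, limma adjusted p = 0.351).

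The motors that set up the bipolar spindle did not pass. KIF11, the target of spindle poisons such as monastrol, had 10.1, 11.4 and 37.4 FPKM in shControl and 16.3, 11.1 and 14.1 FPKM in shTRMT6 (log2 fold change -0.25, SE 0.46, limma adjusted p = 0.698). KIF15, which can stand in for KIF11, had 8.44, 9.37 and 6.98 FPKM against 20.1, 9.88 and 11.5 FPKM (0.63, limma adjusted p = 0.168). KIFC1, which gathers spindle poles, had 17.6, 22.6 and 39.2 FPKM against 30.1, 33.1 and 36.8 FPKM (0.39, limma adjusted p = 0.352). The groups overlapped for KIF11 and KIFC1, and their highest control value was in shControl replicate 3. KIF15 had separate groups by a narrow gap.

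KIF2A and KIF2C, which shorten microtubule ends in the spindle, did not pass, and their control libraries differed widely. KIF2A had 43.0, 69.2 and 104 FPKM in shControl and 61.6, 57.2 and 66.6 FPKM in shTRMT6 (log2 fold change -0.13, limma adjusted p = 0.764). KIF2C, which corrects wrong attachments at kinetochores, had 15.1, 24.6 and 51.7 FPKM against 26.8, 25.4 and 28.95 FPKM (0.01, SE 0.40, limma adjusted p = 0.989). In both, the knockdown values sat inside the range of the control values.

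The kinesins of the central spindle and cytokinesis likewise did not pass. KIF23, which forms centralspindlin with RACGAP1, had 11.2, 9.29 and 24.1 FPKM in shControl and 18.8, 15.1 and 13.4 FPKM in shTRMT6 (log2 fold change 0.18, limma adjusted p = 0.729). KIF20A, which moves the chromosomal passenger complex to the midzone, had 7.79, 21.0 and 21.4 FPKM against 53.2, 17.9 and 23.6 FPKM (0.85, SE 0.47, limma adjusted p = 0.187). Its high mean in shTRMT6 rested on replicate 1. KIF20B, KIF14 and KIF4A, which act in abscission, cytokinesis and midzone length, had log2 fold changes of 0.39, 0.62 and 0.76. Only KIF4A of these 3 had separate groups, at 5.43, 10.0 and 13.9 FPKM against 17.3, 14.0 and 17.9 FPKM, and because of its copy KIF4B its reads are partly uncertain.

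**Figure D3:**
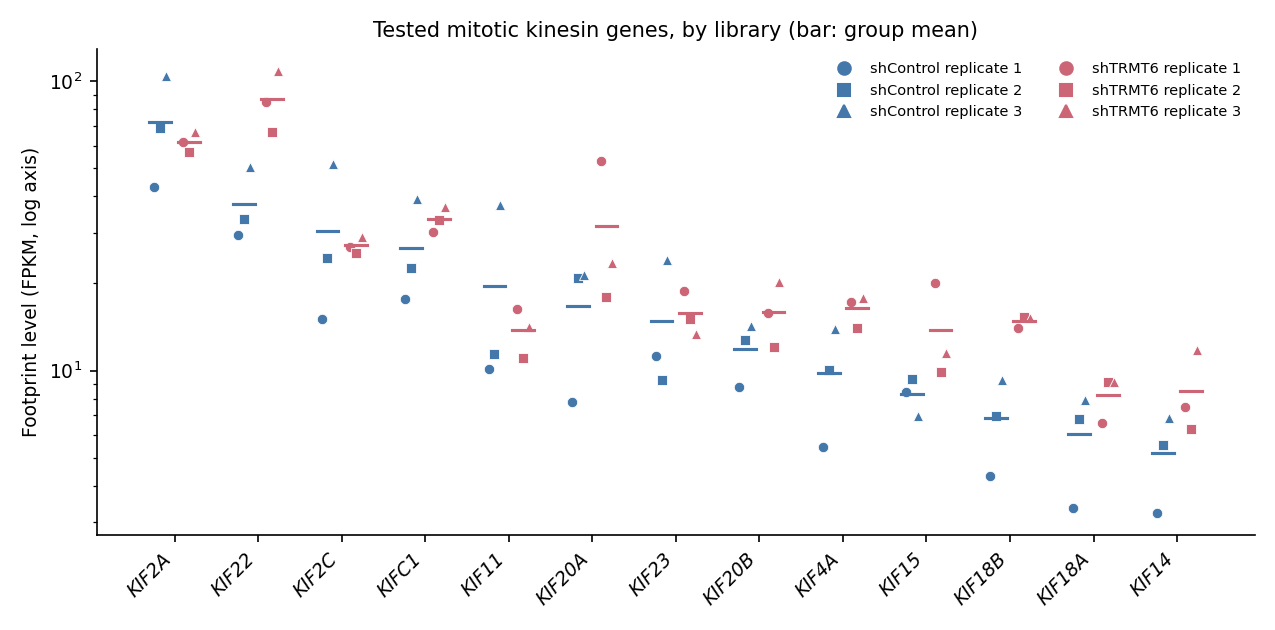
Footprint level in FPKM (vertical log axis) of the 13 tested mitotic kinesin genes in each library, with a bar at each group mean. In 12 of the 13 the highest control value is that of shControl replicate 3 (blue triangle), and in 11 the lowest is that of shControl replicate 1 (blue circle).

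The control libraries differed among themselves in the mitotic class. The highest of the 3 control values was in shControl replicate 3 for 12 of 13 tested mitotic kinesins, all but KIF15, and the lowest was in shControl replicate 1 for 11. Among the 12 tested transport kinesins shControl replicate 3 was the highest control for 3. The pattern was not limited to kinesins. It was the highest control for most of the proteins that work with mitotic kinesins, listed below. RACGAP1, for example, had 56.3, 36.6 and 159 FPKM in shControl, and ECT2 26.8, 30.7 and 91.1 FPKM. BIRC5 and TACC3 were among the exceptions. The share over all genes was not counted. For 5 mitotic kinesins, KIF2A, KIF2C, KIF11, KIF23 and KIFC1, shControl replicate 3 was the highest of all 6 libraries. Without it 4 mitotic kinesins were higher, KIF4A and KIFC1 joining KIF18B and KIF22, and the median log2 fold change of the class was 0.66. Without shTRMT6 replicate 3 no mitotic kinesin passed in limma, and with median scaling none did either, KIF22 standing at 0.70 (adjusted p = 0.0873) in the latter.

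In the remaining class 2 of 7 tested members were higher and 0 lower, beside the same 26.5% and 9.04% of all tested genes. KIF27 (ENSG00000165115, minus strand of chromosome 9 from 83836698 to 83921465 on GRCh38), described in motile cilia, had 2.65, 4.77 and 2.00 FPKM in shControl and 17.8, 14.4 and 21.7 FPKM in shTRMT6. The groups were far apart (log2 fold change 2.23, SE 0.35, limma adjusted p = 0.0022). KIF7 (ENSG00000166813, minus strand of chromosome 15 from 89608789 to 89655451), its closest relative and a regulator of Hedgehog signalling at the cilium tip, had 4.19, 4.42 and 4.35 FPKM in shControl and 16.3, 26.5 and 22.0 FPKM in shTRMT6. Its control libraries were nearly equal (log2 fold change 2.06, SE 0.30, limma adjusted p = 0.00165). KIF7 and KIF27 were the members that kept their call with median scaling, quantile normalization, removal of the level and length trends and each of the 6 fits leaving out a library. With trends removed their log2 fold changes were 1.14 and 1.25 (limma adjusted p = 0.0228 and 0.0190), and over all their alternatives the adjusted p stayed below the threshold.

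Reads of these genes are not equally certain. In KIF27, 48.3% of the coding windows of 28 bases also stand in transcripts of other genes, with the largest share, 24.6%, in AL353743.4, and 16.1% of its coding bases are overlapped by exons on the other strand. In KIF7 no window is shared, and 8.7% of its coding bases are overlapped by exons of TICRR on the other strand. Strand use in the counting is not given in the sources used here.

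The other tested members of this class did not pass. KIF26B, which lacks the ATPase activity of its relatives, had 0.15, 0.38 and 0.25 FPKM in shControl and 1.88, 1.00 and 1.26 FPKM in shTRMT6. The groups were separate, but the gene rests on an estimated 3 to 33 reads per library and did not pass (log2 fold change 0.90, SE 0.38, limma adjusted p = 0.0923). KIF26B met the filter through its shTRMT6 values alone, which favours separate groups and a positive change. It is nonetheless counted among the separate members of the family and of this class. KIF24, a centriole kinesin that restrains cilia, had 1.52, 1.58 and 2.04 FPKM against 3.43, 3.31 and 4.16 FPKM, again with separate groups and no call (0.77, limma adjusted p = 0.0973). KIF9, KIF12 and KIF26A overlapped between groups, with log2 fold changes of 0.20, -0.26 and 0.24. Of the kinesins outside the naming rule, STARD9, a centrosomal kinesin of mitosis, had 0.53, 2.93 and 0.35 FPKM in shControl and 7.20, 6.02 and 8.90 FPKM in shTRMT6 (2.04, SE 0.45, limma adjusted p = 0.00847). Without its shTRMT6 values STARD9 would not have met the filter either. CENPE, the kinetochore motor, had 4.0, 13.4 and 6.15 FPKM against 13.8, 7.05 and 23.4 FPKM and did not pass (0.83, limma adjusted p = 0.210).

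Ratios within a library do not depend on a factor applied to the whole library, but they keep any trend with level or coding length. KIF5B, the divisor here, is itself a member, with a log2 fold change of 0.18. Relative to KIF5B in the same library, KIF1C stood at 0.213, 0.253 and 0.121 in shControl and at 0.460, 0.458 and 0.455 in shTRMT6. KIF3B stood at 0.173, 0.185 and 0.18 against 0.330, 0.347 and 0.311. KIF7 stood at 0.0409, 0.0344 and 0.0351 against 0.124, 0.215 and 0.15. In all 3 the knockdown ratios lay above the control ratios. Of the 13 called members 12 had separate ratios, all but KIFC3. The 13 were called on the same values, so that count is no separate check. Of the 31 tested members other than KIF5B, 15 were separate and higher and 0 separate and lower. Over all tested genes, 29.8% were separate and higher and 16.5% separate and lower by this ratio. By class, 8 of 11 transport, 3 of 13 mitotic and 4 of 7 other kinesins were separate and higher.

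Summed over all members of a class, tested or not, transport kinesins had 297, 312 and 340 FPKM in shControl and 507, 502 and 604 FPKM in shTRMT6. The mean was 1.70 times higher in shTRMT6, and the groups were separate. Mitotic kinesins summed to 168, 243 and 388 FPKM in shControl and 373, 294 and 378 FPKM in shTRMT6, with overlapping groups and a mean 1.31 times higher. With median scaling these factors were 1.2 and 0.92, so the mitotic direction turned. The mitotic sum divided by the transport sum was 0.56, 0.78 and 1.14 in shControl and 0.74, 0.59 and 0.63 in shTRMT6, and these ranges overlapped. The other 10 kinesins summed to 25.7, 25.9 and 18.7 FPKM against 49.0, 62.3 and 75.0 FPKM.

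**Figure D4:**
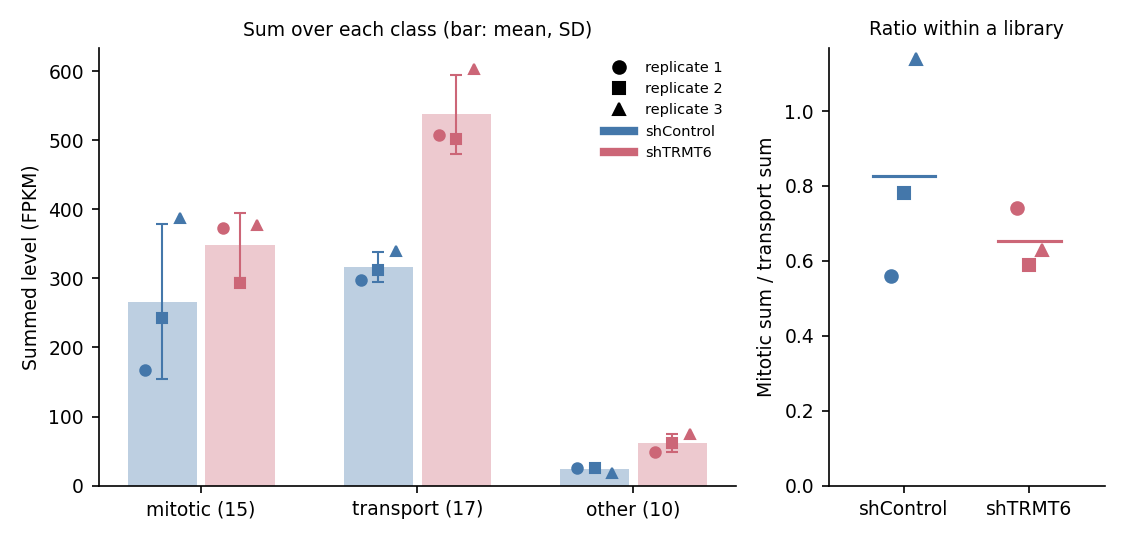
Left, summed level in FPKM of each kinesin class, with bars at the group mean, error bars of 1 SD (n = 3) and a point per library. Right, the mitotic sum divided by the transport sum in each library, with a line at the group mean. The transport sums of the groups are separate, while the mitotic sums and the ratio overlap.

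Coding length accompanied the change. In 8 bins of tested genes by coding length the median log2 fold change went from -0.10 at a median of 435 nt to 0.88 at 4170 nt, and was 0.69 at 2562 nt. Tested kinesins ran from 1953 to 6324 nt, all in the upper part of this range. The medians of coding length were 2694 nt for mitotic, 3099 nt for transport and 4104 nt for the other kinesins. At like length, members lay on either side of the bin medians. KIFC2 (2514 nt) and KIF2A (2232 nt), for example, had log2 fold changes of 2.13 and -0.13. With the level and length trends removed the medians were -0.42 for mitotic, 0.29 for transport and -0.27 for the other kinesins, and the difference between classes was not tested.

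**Figure D5:**
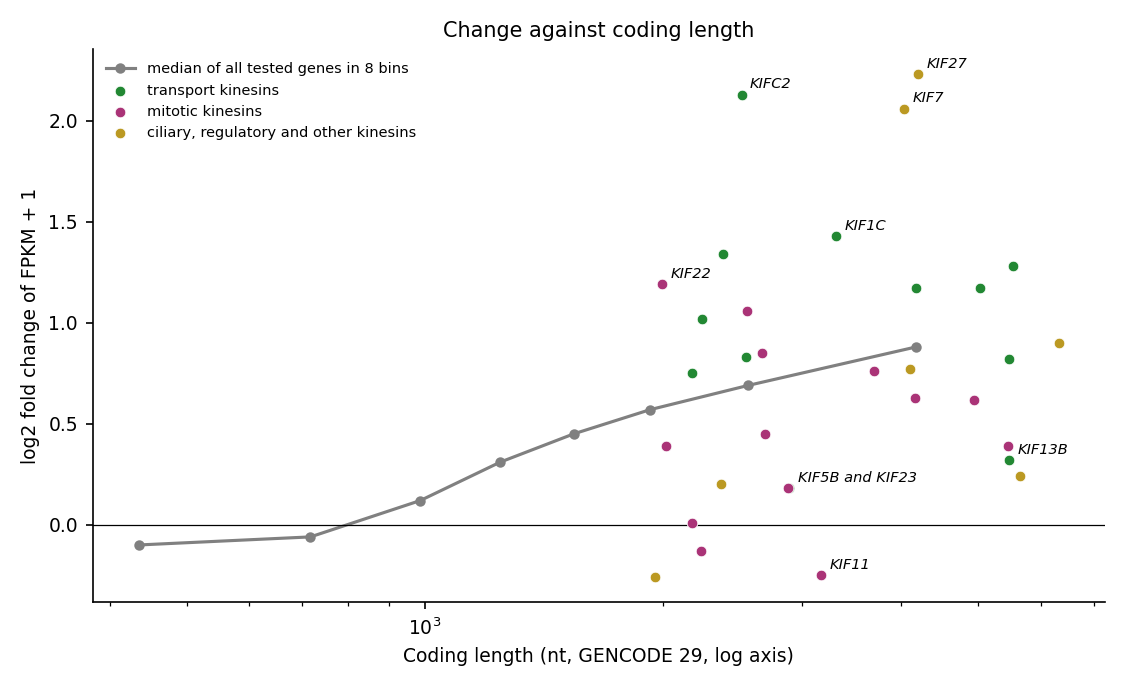
Log2 fold change of FPKM + 1 (vertical axis) against coding length in nt (horizontal log axis) for the 32 tested kinesins by class, with the median of all tested genes in 8 length bins in grey. The grey line climbs from -0.10 to 0.88, most transport kinesins lie above it, and KIF11 and KIF5B lie below it.

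Partners of the kinesins moved in both directions. Of 20 tested light chains, adaptors and cargo receptors 8 were higher and 1 lower, beside 26.5% and 9.04% of all tested genes, and their median change was 0.24 (log2). MAPK8IP3, an adaptor between kinesin-1 and its cargo, had 1.64, 4.99 and 1.11 FPKM in shControl and 18.0, 15.1 and 24.5 FPKM in shTRMT6 (2.62, limma adjusted p = 0.00252). TRAK1 and RHOT2, which link mitochondria to KIF5 motors, had log2 fold changes of 2.09 and 1.8, and PLEKHM2, which couples lysosomes to kinesin-1, 1.41. The groups of MAPK8IP3 were separate, as were those of these other 3. With median scaling 5 of the 20 were higher and 2 lower, beside 13.1% and 19.7% of all genes. Quantile normalization gave 4 higher and 2 lower, beside 13.9% and 14.7% of all genes. Removing the level and length trends gave 3 higher and 3 lower, beside 13.5% and 13.6%. Of the light chains of kinesin-1, named after their values were seen, KLC1 was higher (0.84, limma adjusted p = 0.0410). KLC2, KLC3 and KLC4 did not pass, with log2 fold changes of 0.07, -0.35 and -0.19.

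Of 24 tested proteins that work with mitotic kinesins, CENPE included, 3 were higher and 1 lower, beside 26.5% and 9.04% of all tested genes, and their median change was 0.12 (log2). The plus-end binding protein MAPRE3 had 1.51, 1.42 and 0.95 FPKM in shControl and 10.8, 8.98 and 9.41 FPKM in shTRMT6 (2.23, limma adjusted p = 0.0016). Its relative MAPRE2 went the other way, from 34.5, 28.6 and 36.3 FPKM to 12.7, 13.7 and 12.6 FPKM (-1.28, limma adjusted p = 0.00519). Both had separate groups. Without its shTRMT6 values MAPRE3 would not have met the filter, which favours separate groups and a positive change for it. NUMA1, which anchors dynein at spindle poles, and TPX2, which brings Aurora A to the spindle, rose by 0.95 and 1.27 on the log2 scale. Under median scaling 1 of the 24 was higher and 10 lower, beside 13.1% and 19.7% of all genes. Quantile normalization gave 2 higher and 5 lower, beside 13.9% and 14.7% of all genes. Removing the level and length trends gave 1 higher and 4 lower, beside 13.5% and 13.6%.

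In dynein and dynactin, the minus-end motor and its activator, 2 of 27 tested genes were higher and 4 lower, beside 26.5% and 9.04% of all tested genes, with a median of -0.03. The light intermediate chain DYNC1LI2 had 69.9, 96.3 and 86.4 FPKM in shControl and 269, 270 and 401 FPKM in shTRMT6 (1.87, limma adjusted p = 0.00115). The other light intermediate chain, DYNC1LI1, named after its values were seen, was lower (-0.95, limma adjusted p = 0.0296). The heavy chain DYNC1H1, likewise named after its values were seen, was higher. It had 6.69, 11.2 and 15.6 FPKM in shControl and 26.6, 28.9 and 26.5 FPKM in shTRMT6 (1.29, limma adjusted p = 0.014). The dynactin filament genes CAPZB, CAPZA1 and ACTR1A were lower, at -1.43, -1.31 and -1.17. CAPZB had 630, 614 and 602 FPKM in shControl and 229, 226 and 229 FPKM in shTRMT6, the groups being narrow and far apart. With median scaling 1 gene was higher and 11 lower, beside 13.1% and 19.7% of all genes. Quantile normalization gave 1 higher and 5 lower, beside 13.9% and 14.7% of all genes. Removing the level and length trends gave 1 higher and 6 lower, beside 13.5% and 13.6%.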

How the data were processed

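Ribosome footprints of 6 RKO libraries were analysed, 3 shControl and 3 shTRMT6. Per the file headers, the authors deposited FPKM per gene, and the values have 2 decimals. Tools listed in the submitters' processing notes are fastp, STAR and RSEM, with no version. The build, annotation, strand setting and handling of near-identical genes were not given in the sources used here. Columns named NC and SH, numbered 1 to 3, were read as shControl and shTRMT6 replicates, which no label spells out. 0 columns were left unassigned.

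Symbols were found for 19705 of 20289 identifiers. Positions, coding lengths and sequences came from GENCODE 29 (GRCh38), which may differ from the authors' annotation. Values were tested as log2(FPKM + 1) with limma 3.58.1 (R 4.3.3), using the group term alone and a mean-variance trend in eBayes. The 11566 genes reaching 1 FPKM in 3 or more libraries were tested together, and calls were made at 0.05 after Benjamini-Hochberg adjustment. Fold changes on this scale understate the change of low genes. The fit was tested on simulated data.

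Low FPKM values fall on steps, and the share within 0.1 of a whole read at coding length was 64.1% to 73.8%. Read totals and reads per gene were estimated from these steps, exact only where a gene has 1 coding transcript. Count models were not fitted. Pearson's r between libraries, across genes, was 0.936 to 0.964 within groups and 0.865 to 0.923 between them.

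Every member was to be accounted for, called members and the 3 highest of each class by library, and up to 4 partners per list by smallest p. Members and lists were chosen with earlier results of these data known. Alternatives were median scaling, quantile normalization, spline fits (5 degrees of freedom) that remove trends with level and coding length, a pseudocount of 0.1, testing without the filter, a filter on means of 5 FPKM, a replicate block and leaving out each library. Python 3.11.15, pandas 2.3.3, numpy 2.4.6, Biopython 1.88 and matplotlib 3.10.9 served for tables, sequences and plots.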

Additional observations from a re-analysis of the deposited data

How the results depend on the processing

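The count of higher kinesins, 13 of 32, was 5 with median scaling, 5 with quantile normalization and 2 with level and length trends removed. No kinesin passed as lower in any of these fits or in those leaving out a library. For mitotic kinesins (2) these counts were 0, 1 and 0, and for transport kinesins (9) 3, 2 and 0. For the other kinesins (2) they were unchanged. In the same fits and order, 13.1%, 13.9% and 13.5% of all tested genes were higher and 19.7%, 14.7% and 13.6% lower. Of genes with a coding length of at least 2000 nt, 19.9%, 17.8% and 10.5% were higher and 4.52%, 5.05% and 8.93% lower. Leaving out each library gave 7 to 15 kinesins, with 7 without shControl replicate 1 and 7 without shTRMT6 replicate 3. It gave 0 to 4 mitotic and 4 to 9 transport kinesins, and 2370 to 4717 of all genes against 4115.

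For all tested kinesins the median log2 fold change (0.77) was 0.32 with median scaling, 0.10 with quantile normalization, -0.15 with trends removed and 0.62 without the low-value filter. That of mitotic kinesins (0.45) was 0.02, -0.10 and -0.42 in the first 3 of these. That of transport kinesins (1.10) was 0.63, 0.56 and 0.29, and 0.82 without the filter. That of the others (0.77) was 0.42, -0.02 and -0.27, 0.63 without the filter, 1.05 with a pseudocount of 0.1 and 2.06 with a mean of at least 5 FPKM, which tests fewer genes. Leaving out each library gave 0.67 to 0.92 for all kinesins, 0.21 to 0.66 for mitotic, 0.94 to 1.15 for transport and 0.45 to 0.86 for the other kinesins.

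Of the called kinesins only KIF1B turned negative with trends removed, at -0.06. Of all 32 tested kinesins 14 had a positive change in that fit, against 29 in the main fit. Summed mitotic kinesins went from 1.31 times to 0.92 with median scaling, and transport kinesins from 1.70 times to 1.2, and to 2.04 without KIF5B. The causes were not tested. TRMT6 kept its direction and call in each of these fits. The replicate numbers showed no clear pairing of libraries. Deviations of same-numbered libraries correlated at 0.012, 0.013 and 0.102, and those of differently numbered ones at -0.143 to 0.127. With the replicate block 12 kinesins passed, all but KIF1B (limma adjusted p = 0.0593), and 4211 of all genes. Members of a few FPKM are limited by depth.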
